A study of Saccharomyces pastorianus with 12 samples.

Results

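The genes described here encode the machinery of DNA replication in lager brewing yeast: origin recognition and loading factors, the replicative helicase, DNA polymerases and primase, the single-strand binding protein, the sliding clamp and its loader, DNA ligase, and ribonucleotide reductase. They were taken by gene symbol from the platform's probe annotation. Of the 43 listed genes, 41 had a named probe, 1 probe each, out of 6051 rows tested (5490 named genes and 561 unnamed probes). ORC4 and DPB2 were not matched by symbol and were not analysed here. The samples were total RNA of Saccharomyces pastorianus, the lager yeast that arose by hybridisation between S. cerevisiae and a relative, drawn from a lager fermentation at production scale. Samples were taken at 0, 1, 24, 48, 72, 96, 120, 144, 168, 192, 240 and 264 h, with 1 array at each time. The labels give no strain, wort or temperature, and no separate fermentations. Neighbouring times were therefore pooled into windows of 0 and 1 h (2 arrays), 24 to 72 h (3), 96 to 144 h (3) and 168 to 264 h (4). A p-value between windows sets the difference of window means against the spread of the arrays within windows. That spread holds both array noise and change within a window.

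A DNA replication origin is first bound by the origin recognition complex (ORC), on which Cdc6 helps to load the ring-shaped MCM helicase. Cdc45 and the GINS complex then turn the loaded ring into the active helicase, and polymerases, the clamp and the ligase copy and seal the strands. Ribonucleotide reductase makes the deoxynucleotides that the polymerases use. In dividing S. cerevisiae many of these genes, among them RNR1, POL1, POL30, RFA1 and CDC9, are transcribed in a pulse as cells pass from G1 into S phase, and CDC6 in late mitosis and G1. The transcripts of whole cultures show the average over cells of all phases, so fewer cells in a phase and less RNA per cell cannot be told apart.

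A level is the log2 intensity of a probe minus the median of its array, and levels of different probes are not compared. Without this centring the median of all rows differed by -2.06 to 1.35 between the groups compared, so each difference is relative to the median gene. Arrays differed in median intensity, with 762 (168 h) as the lowest and 10142 (96 h) as the highest. The 95th percentile was between 4.61 (240 h) and 34.4 (1 h) times the 5th. The 240 h array had a median Spearman correlation of 0.252 with the others, against 0.403 to 0.652 for the remaining 11 arrays. No background signal came with the values. Of the 492 values of the replication genes, 25 (5.08%) lay below the 5th percentile of their array, in 9 genes, and for these the distance from background is unknown. They were values of SLD5 at 7 times, MCM5 at 6, CDC45 at 3, POL2, RFC3 and RNR1 at 2 each, and MCM4, POL1 and POL12 at 1 each.

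Over the fermentation no course common to the replication genes was seen, and single members differed in opposite directions. None of the 41 passed limma's test, adjusted over all rows, in the 4 comparisons of windows (0% of all rows passed in 3 of them and 0.0826% in that of 168 to 264 h against 24 to 72 h) or in the course over hours (0.0331%). The median deviation of the genes from their own 12-array means lay between -0.30 log2 units at 24 h and 0.21 at 0 h. At the other 10 times it lay between -0.13 and 0.17. The standard deviation of a gene's level over the 12 arrays had a median of 0.61 for the replication genes and 0.63 for all rows, and 20 of the 41 lay above the median of all rows. The array with most highest values was that at 1 h, where 12 of the 41 genes (29.3%) peaked, against 19.8% of all rows. The 264 h array held 10 peaks (24.4%, against 13.0% of all rows), and the 24 h array 12 of the lowest values (29.3%, against 16.9%). At 0 h 7 genes peaked (17.1%, against 6.33% of all rows). The 168 h array held 6 of the lowest values (14.6%, against 6.04%) and 2 peaks (4.88%, against 14.9%).

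**Figure D1:**
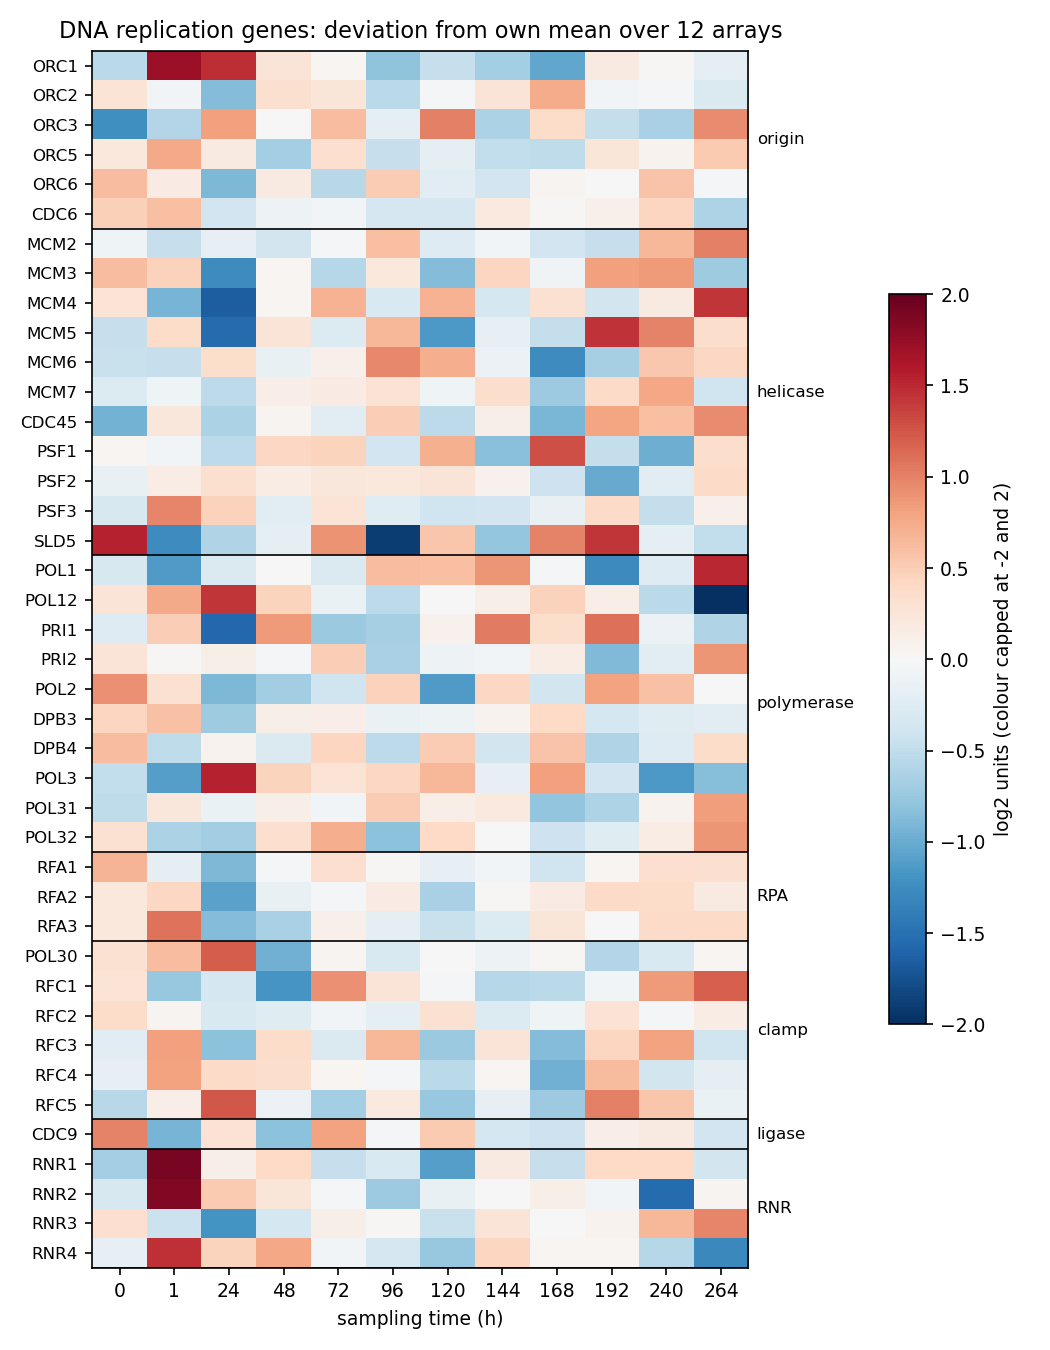
Each row is a DNA replication gene and each column an array, by sampling time in hours. Colour gives the log2 level minus the gene's own mean over the 12 arrays, grouped by role (origin: ORC and CDC6; helicase: MCM, CDC45 and GINS; RPA: RFA genes; clamp: POL30 and RFC genes; RNR: ribonucleotide reductase). RNR1, RNR2, RNR4 and ORC1 are among the darkest red at 1 h, and no array is red or blue throughout.

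Among the origin genes, ORC1, the largest ORC subunit and an ATPase, varied most. ORC1 was at -0.56 and 1.70 at 0 and 1 h, at 1.46, 0.24 and 0.02 at 24 to 72 h, at -0.82, -0.48 and -0.70 at 96 to 144 h, and at -1.06, 0.16, 0.01 and -0.20 at 168 to 264 h. It was high at 1 and 24 h and below zero from 96 to 168 h. ORC3 was at -0.80 and -0.16 at 0 and 1 h, at 1.23, 0.42 and 1.03 at 24 to 72 h, at 0.24, 1.43 and -0.20 at 96 to 144 h, and at 0.79, -0.06, -0.23 and 1.37 at 168 to 264 h. ORC3, another ORC subunit, had its lowest value at 0 h and its highest at 120 h, with 264 h close to that. CDC6 was at 0.90 and 1.03 at 0 and 1 h, at 0.03, 0.32 and 0.36 at 24 to 72 h, at 0.09, 0.08 and 0.61 at 96 to 144 h, and at 0.44, 0.51, 0.85 and -0.20 at 168 to 264 h. The levels of CDC6, the loading factor, at 0 and 1 h lay above every later one. The subunit genes ORC2, ORC5 and ORC6 ranged from -0.64 to 0.97, from -1.27 to 0.16 and from -1.18 to 0.33 over the arrays.

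No single course was seen across the 11 helicase genes. Their median deviation from their own means was -0.53 at 24 h, -0.38 at 168 h, and 0.38, 0.53 and 0.36 at 192, 240 and 264 h. At 168 to 264 h against 24 to 72 h, 7 were higher and 4 lower. The median difference was 0.39, against 0.04 over all rows, and 0.03 without the 24 h array. MCM2 was at -0.40 and -0.78 at 0 and 1 h, at -0.47, -0.68 and -0.35 at 24 to 72 h, at 0.28, -0.58 and -0.37 at 96 to 144 h, and at -0.70, -0.78, 0.35 and 0.70 at 168 to 264 h. MCM2 had its highest values on the last 2 arrays. MCM3 was at 0.10 and -0.06 at 0 and 1 h, at -1.78, -0.49 and -1.09 at 24 to 72 h, at -0.32, -1.39 and -0.09 at 96 to 144 h, and at -0.60, 0.30, 0.33 and -1.24 at 168 to 264 h. MCM5 was at -1.94 and -1.11 at 0 and 1 h, at -3.02, -1.22 and -1.76 at 24 to 72 h, at -0.82, -2.62 and -1.64 at 96 to 144 h, and at -1.96, -0.03, -0.49 and -1.13 at 168 to 264 h. MCM3 and MCM5 were both lowest at 24 h, with 120 h next. MCM6 was at -0.20 and -0.21 at 0 and 1 h, at 0.61, 0.11 and 0.35 at 24 to 72 h, at 1.21, 0.97 and 0.13 at 96 to 144 h, and at -1.01, -0.41, 0.78 and 0.67 at 168 to 264 h. MCM6, in contrast, was above zero at all times from 24 to 144 h and lowest at 168 h. MCM4 ranged from -2.21 at 24 h to 0.87 at 264 h, and MCM7 from -1.06 at 168 h to 0.42 at 240 h. CDC45 ranged from -2.15 at 0 h to -0.26 at 264 h. The 15 pairs among MCM2 to MCM7, which encode the subunits of a single ring, had a median Pearson r of 0.20. All pairs of rows had a median of 0.00. Both come from the same 12 arrays, with their shared scaling and dim signals. Of the GINS genes, PSF1, PSF2 and PSF3 ranged from -1.11 to 1.16, from -0.85 to 0.54 and from -1.11 to 0.35. SLD5 was at -0.10 and -2.90 at 0 and 1 h, at -2.25, -1.82 and -0.74 at 24 to 72 h, at -3.54, -1.08 and -2.42 at 96 to 144 h, and at -0.66, -0.22, -1.85 and -2.13 at 168 to 264 h. SLD5, the remaining GINS gene, was among the dimmest, and its values at 1, 24, 48, 96, 144, 240 and 264 h lay under the 5th percentile of their arrays.

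The catalytic subunits of the 3 replicative polymerases peaked at different times. POL1 was at -0.90 and -1.71 at 0 and 1 h, at -0.86, -0.58 and -0.87 at 24 to 72 h, at 0.05, 0.03 and 0.31 at 96 to 144 h, and at -0.59, -1.85, -0.83 and 0.93 at 168 to 264 h. POL1, the catalytic subunit of polymerase alpha, which starts strands with primase, was above zero at 96 to 144 h and at 264 h alone. POL12 was at 0.47 and 0.98 at 0 and 1 h, at 1.64, 0.66 and 0.08 at 24 to 72 h, at -0.31, 0.21 and 0.33 at 96 to 144 h, and at 0.68, 0.35, -0.33 and -2.20 at 168 to 264 h. Its partner POL12 was highest at 24 h and lay under the 5th percentile at 264 h. PRI1 was at 0.36 and 1.10 at 0 and 1 h, at -0.95, 1.47 and -0.12 at 24 to 72 h, at -0.05, 0.71 and 1.65 at 96 to 144 h, and at 0.97, 1.71, 0.50 and 0.02 at 168 to 264 h. PRI1, the catalytic primase subunit, had its highest values at 48, 144 and 192 h and its lowest at 24 h. POL2 was at -0.12 and -0.73 at 0 and 1 h, at -1.92, -1.73 and -1.43 at 24 to 72 h, at -0.57, -2.16 and -0.62 at 96 to 144 h, and at -1.40, -0.22, -0.44 and -1.04 at 168 to 264 h. POL2, the catalytic subunit of the leading-strand polymerase epsilon, was highest at 0 h and lowest at 120 h, with low values from 24 to 72 h too. POL3 was at 0.42 and -0.19 at 0 and 1 h, at 2.46, 1.35 and 1.19 at 24 to 72 h, at 1.32, 1.57 and 0.75 at 96 to 144 h, and at 1.72, 0.53, -0.24 and 0.06 at 168 to 264 h. POL3, the catalytic subunit of polymerase delta, was highest at 24 h and lowest at 240 h. The smaller subunits PRI2, DPB3, DPB4, POL31 and POL32 ranged from -0.55 to 1.21, from -0.57 to 0.73, from -0.53 to 0.69, from -0.48 to 1.15 and from -1.46 to 0.25.

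The RFA genes encode the 3 subunits of replication protein A, which coats single-stranded DNA. RFA1 was at 0.78 and -0.09 at 0 and 1 h, at -0.80, 0.05 and 0.43 at 24 to 72 h, at 0.11, -0.07 and 0.04 at 96 to 144 h, and at -0.31, 0.14, 0.43 and 0.41 at 168 to 264 h. RFA3 was at -0.30 and 0.58 at 0 and 1 h, at -1.37, -1.17 and -0.42 at 24 to 72 h, at -0.70, -0.96 and -0.79 at 96 to 144 h, and at -0.27, -0.50, -0.14 and -0.13 at 168 to 264 h. RFA2 ranged from -0.95 at 24 h to 0.53 at 1 h. All 3 RFA genes had their lowest level at 24 h, and their pairwise r over the 12 arrays had a median of 0.63. The 24 h array also held the lowest value of 16.9% of all rows.

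POL30 was at 0.12 and 0.44 at 0 and 1 h, at 1.03, -1.14 and -0.13 at 24 to 72 h, at -0.48, -0.20 and -0.29 at 96 to 144 h, and at -0.16, -0.77, -0.49 and -0.15 at 168 to 264 h. POL30, which encodes the sliding clamp PCNA, was high at 24 h alone and at its lowest at 48 h. The clamp loader genes RFC1 to RFC5 ranged from -0.79 to 1.59, from -0.60 to 0.07, from -1.77 to -0.08, from -1.10 to 0.65 and from -1.30 to 0.70. RFC2 had the narrowest range of the 41 genes. CDC9 was at 1.04 and -0.89 at 0 and 1 h, at 0.33, -0.77 and 0.85 at 24 to 72 h, at 0.01, 0.57 and -0.31 at 96 to 144 h, and at -0.36, 0.18, 0.22 and -0.34 at 168 to 264 h. CDC9, the DNA ligase that joins Okazaki fragments, was highest at 0 h and lowest at 1 h.

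Ribonucleotide reductase held the largest upward difference of the first hour. RNR1 was at -1.51 and 1.06 at 0 and 1 h, at -0.72, -0.43 and -1.29 at 24 to 72 h, at -1.14, -1.93 and -0.64 at 96 to 144 h, and at -1.29, -0.43, -0.44 and -1.20 at 168 to 264 h. RNR1 encodes the main large subunit, and its values at 0 and 120 h lay under the 5th percentile. RNR2 was at 0.80 and 2.97 at 0 and 1 h, at 1.63, 1.36 and 1.09 at 24 to 72 h, at 0.39, 0.96 and 1.13 at 96 to 144 h, and at 1.23, 1.07, -0.42 and 1.16 at 168 to 264 h. RNR4 was at 0.95 and 2.58 at 0 and 1 h, at 1.56, 1.89 and 1.05 at 24 to 72 h, at 0.78, 0.35 and 1.53 at 96 to 144 h, and at 1.16, 1.14, 0.54 and -0.18 at 168 to 264 h. RNR2 and RNR4, which encode the small subunits, were both highest at 1 h in these median-centred values. The 1 h array had the widest spread of intensities. After quantile normalization their differences from 0 h were 0.83 and 0.41, against 2.18 and 1.63 median-centred. RNR2 was lowest at 240 h and RNR4 at 264 h. RNR3 was at -0.11 and -0.88 at 0 and 1 h, at -1.64, -0.80 and -0.33 at 24 to 72 h, at -0.43, -0.89 and -0.19 at 96 to 144 h, and at -0.46, -0.37, 0.21 and 0.53 at 168 to 264 h. RNR3, the large subunit known for its induction by DNA damage, was lowest at 24 h and highest at 264 h. RNR1 and RNR3 are closely related in sequence, so their probes may share signal, and the copies of a gene that the hybrid holds from both parents were not told apart.

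**Figure D2:**
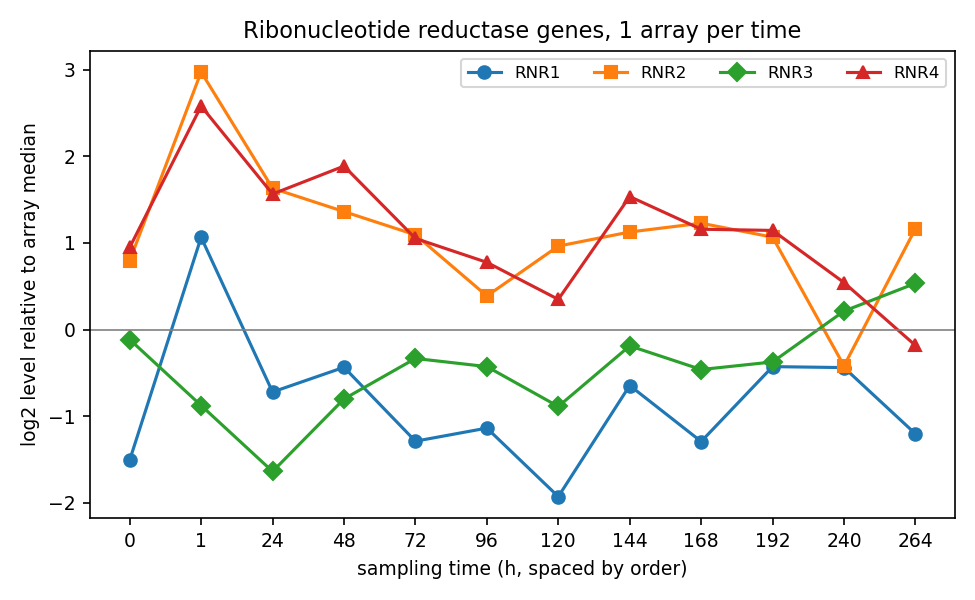
Log2 level relative to the array median (y axis) of the 4 ribonucleotide reductase genes at each sampling time in hours (x axis, spaced by order), 1 array per time. In these median-centred values RNR1, RNR2 and RNR4 peak at 1 h, while RNR3 is at -0.88 there and reaches 0.53 at 264 h.

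The first comparison asked what changed in the first hour after 0 h, with 1 array on each side and so no replicate check and no test. RNR1 was at 1.06 at 1 h and -1.51 at 0 h, a log2 difference of 2.57 or 5.94-fold. ORC1 was 4.79-fold higher, RNR2 4.52-fold and RNR4 3.09-fold. After quantile normalization the log2 differences were 2.46 for RNR1 and 1.81 for ORC1, but 0.83 for RNR2 and 0.41 for RNR4, against 2.18 and 1.63 median-centred. The intensity of RNR1 at 0 h was under the 5th percentile of that array.

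More than 2-fold higher at 1 h were 7 of the 41 genes (17.1%), against 22.7% of all rows, and more than 2-fold lower were 5 (12.2%), against 18.3%. The other 3 higher genes were PSF3, CDC45 and RFC3, at 2.46-, 2.25- and 2.08-fold, with CDC45 under the 5th percentile at 0 h. Held at that percentile, CDC45 differed by 0.33 on the log2 scale. SLD5 had the largest difference downward, with -2.90 at 1 h and -0.10 at 0 h, but its 1 h value was under the 5th percentile, and held there the difference was -1.80, smaller than that of CDC9. CDC9 was 3.81-fold lower, MCM4 2.29-fold, DPB4 2.18-fold and RFC1 2.05-fold. After quantile normalization 6 genes were more than 2-fold higher (14.6%, against 17.5% of all rows) and 5 lower (12.2%, against 17.7%). The genes were not all the same. RNR2 and RNR4 left the higher genes, and MCM5 (1.37), under the 5th percentile at 0 h, joined them. Among the lower genes MCM4 (-0.84) dropped out and RFA1 (-1.08) came in. The median difference was 0.15 over the replication genes and 0.05 over all rows, and -0.01 and -0.02 after quantile normalization. By role it was 1.90 for ribonucleotide reductase (3 of 4 genes higher; 0.62 after quantile normalization), 0.50 (0.49) for the clamp and its loader, 0.33 (0.07) for origin genes, 0.20 (-0.07) for the RFA genes, -0.01 (0.10) for the helicase and -0.42 (-0.36) for polymerases and primase, with quantile-normalized values in brackets. The sign turned for the RFA genes and the helicase.

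**Figure D3:**
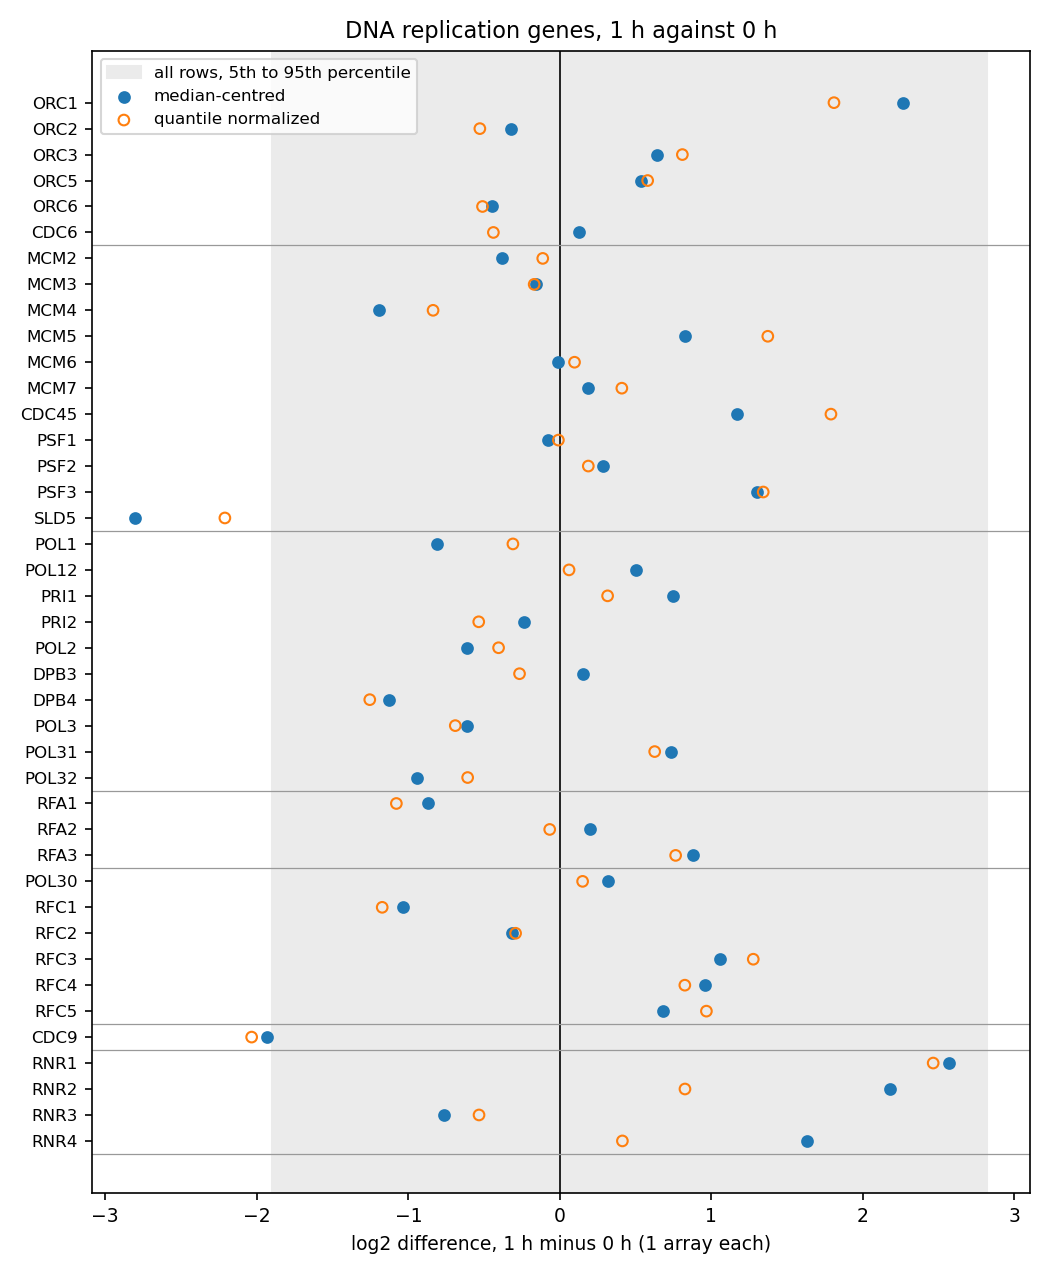
Log2 difference of each DNA replication gene, 1 h minus 0 h (x axis, 1 array each), median-centred (filled) and after quantile normalization (open), ordered by role. The shaded band runs from the 5th to the 95th percentile of all rows in median-centred values. Only SLD5 and CDC9 lie outside it in those values, both on the low side.

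Between 24 to 72 h and 0 to 1 h, 19 of the 41 genes were higher and 22 lower, with a median of -0.10, against -0.08 over all rows. In limma 0 genes passed (0% of all rows), and 4 had an unadjusted p under 0.05 (9.76%, against 2.83% of all rows). POL3 averaged 1.67 ± 0.69 (SD, n = 3) at 24 to 72 h and 0.11 ± 0.43 (n = 2) at 0 to 1 h, a log2 difference of 1.55 (SE 0.59; limma adjusted p = 1.00). ORC3 averaged 0.89 ± 0.43 at 24 to 72 h and -0.48 ± 0.45 at 0 to 1 h, a difference of 1.37 (SE 0.59; limma adjusted p = 1.00). POL2 differed by -1.27 (SE 0.55), MCM3 by -1.14 (SE 0.58) and RFA3 by -1.13 (SE 0.46). RFA3 was named for its unadjusted p, after its values were seen. With single arrays left out the ranges were 1.15 to 1.86 for POL3, 1.05 to 1.69 for ORC3, -1.57 to -0.96 for POL2, -1.45 to -0.81 for MCM3 and -1.57 to -0.69 for RFA3.

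The arrays of these windows did not overlap for 5 genes with higher later levels (12.2%, against 6.59% of all rows). They were POL3, ORC3, MCM6, POL1 and PSF2. For PSF2 the nearest arrays, 1 and 48 h, were both at 0.30 when rounded. For POL1 the nearest, 0 and 72 h, were at -0.90 and -0.87. Arrays also did not overlap for 7 genes with lower levels (17.1%, against 7.11%), namely POL2, MCM3, RFA3, RFA2, CDC6, DPB3 and RFC2. All 4 ribonucleotide reductase genes had negative differences, from -0.59 to -0.26, with overlapping arrays. Their median of -0.48 was -1.34 when 0 h was left out and 0.56 when 1 h was. All 3 RFA genes had negative differences too, with a median of -0.73 that became -0.40 on leaving out 24 h and -0.92 on leaving out 72 h. Without the 72 h array the median over the 41 genes was -0.33, with 12 genes higher, and without the 0 h array it was -0.25.

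Between 96 to 144 h and 24 to 72 h, 21 genes were higher and 20 lower, with a median of 0.02, against 0.00 over all rows. Leaving out 24 h gave a median of -0.07, and leaving out 72 h one of 0.23. In limma 0 genes passed (0% of all rows), and 1 had an unadjusted p under 0.05 (2.44%, against 7.04%). That gene was ORC1, which averaged -0.66 ± 0.17 (n = 3) at 96 to 144 h and 0.57 ± 0.78 (n = 3) at 24 to 72 h. Its log2 difference of -1.24 (SE 0.57; limma adjusted p = 0.687) was -0.79 without the 24 h array. POL1 averaged 0.13 ± 0.16 at 96 to 144 h and -0.77 ± 0.16 at 24 to 72 h, a difference of 0.90 (SE 0.56; limma adjusted p = 0.748) that ranged from 0.81 to 0.99 with single arrays left out. Without centring the POL1 difference turned sign, at -0.23, where the median of all rows was -1.13. The arrays did not overlap for POL1 and POL31, which were higher (4.88%, against 7.24% of all rows), and for ORC1, PSF3 and PRI2, which were lower (7.32%, against 9.95%). The nearest arrays were close for POL31 (0.44 at 120 h, 0.43 at 48 h), PSF3 (-0.87 at 96 h, -0.86 at 48 h) and PRI2 (0.27 at 144 h, 0.31 at 48 h). The other large differences, 0.64 for PRI1 and -0.75 for SLD5, ranged from 0.10 to 1.31 and from -1.38 to -0.15 with single arrays left out. Both turned sign under other settings. PRI1 was at -0.083 with windows shifted by 1 time and at -0.49 without centring. SLD5, under the 5th percentile at 24, 48, 96 and 144 h, was at 0.17 with such values held at that percentile and at 0.24 with shifted windows.

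Between 168 to 264 h and 96 to 144 h, 26 genes were higher and 15 lower, with a median of 0.15, against 0.03 over all rows. In limma 0 of them passed (0% of all rows), and 0 had an unadjusted p under 0.05 (0%, against 1.57%). Leaving out single arrays gave medians of 0.07 (96 h) to 0.21 (240 h), shifting the windows by 1 time gave 0.018, and dropping the dimmest 25% of genes gave 0.030. The differences farthest from 0 were 1.14 for SLD5 (SE 0.71), 0.79 for MCM5 (SE 0.57), -0.77 for MCM6 (SE 0.47) and -0.72 for POL1 (SE 0.52), all with a limma adjusted p of 1.00. Of these, SLD5 was under the 5th percentile at 96, 144, 240 and 264 h, MCM5 at 120, 144 and 168 h, and POL1 at 192 h. With such values held at that percentile they were 0.43 for SLD5, 0.45 for MCM5 and -0.60 for POL1, and RFA3 was the highest at 0.55. With single arrays left out and no such floor, SLD5, MCM5, MCM6 and POL1 ranged from 0.54 to 1.77, from 0.33 to 1.23, from -1.09 to -0.43 and from -1.22 to -0.29. The arrays did not overlap for RFA2 and RFA3, both higher (4.88%, against 1.98% of all rows), and for no gene that was lower (against 1.24%). For RFA2 the nearest arrays, 168 and 96 h, were both at 0.28 when rounded, and its difference of 0.42 was 0.17 without the 120 h array. RFA2 averaged 0.39 ± 0.12 (n = 4) at 168 to 264 h and -0.04 ± 0.43 (n = 3) at 96 to 144 h, and RFA3 averaged -0.26 ± 0.17 at 168 to 264 h and -0.81 ± 0.13 at 96 to 144 h.

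Between 168 to 264 h and 24 to 72 h 23 genes were higher and 18 lower. The median was 0.08, against 0.04 over all rows, and -0.04 without the 24 h array. In limma 0 replication genes passed, against 0.0826% of all rows, and 1 had an unadjusted p under 0.05 (2.44%, against 14.9%). That gene was POL3, which averaged 0.52 ± 0.86 (n = 4) at 168 to 264 h and 1.67 ± 0.69 (n = 3) at 24 to 72 h. Its difference of -1.15 (SE 0.50; limma adjusted p = 0.294) was -0.75 without the 24 h array. POL12 differed by -1.17 (SE 0.59; limma adjusted p = 0.380) and by -0.56 without the 264 h array, where its intensity was under the 5th percentile.

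MCM5 and POL2 differed upward over the same span by 1.09 (SE 0.57; limma adjusted p = 0.389) and 0.92 (SE 0.46; limma adjusted p = 0.373). MCM5 was under the 5th percentile at 24, 72 and 168 h and POL2 at 48 h. With such values held at that percentile the differences were 0.78 for MCM5 and 0.88 for POL2, and RNR3, never under it, was the highest at 0.90. MCM5 averaged -0.91 ± 0.84 at 168 to 264 h and -2.00 ± 0.92 at 24 to 72 h, and differed by 0.59 without the 24 h array. POL2 averaged -0.77 ± 0.54 at 168 to 264 h and -1.69 ± 0.25 at 24 to 72 h, and its arrays did not overlap. The nearest, 168 and 72 h, were at -1.40 and -1.43. RFA2, with a difference of 0.68 (0.35 without the 24 h array), was the other gene whose late arrays all lay above those of 24 to 72 h (together 4.88%, against 5.19% of all rows). No replication gene had late arrays all below those of 24 to 72 h, against 7.35% of all rows. The standard error of a difference in this comparison ran from 0.35 to 0.71 over the 41 genes.

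**Figure D4:**
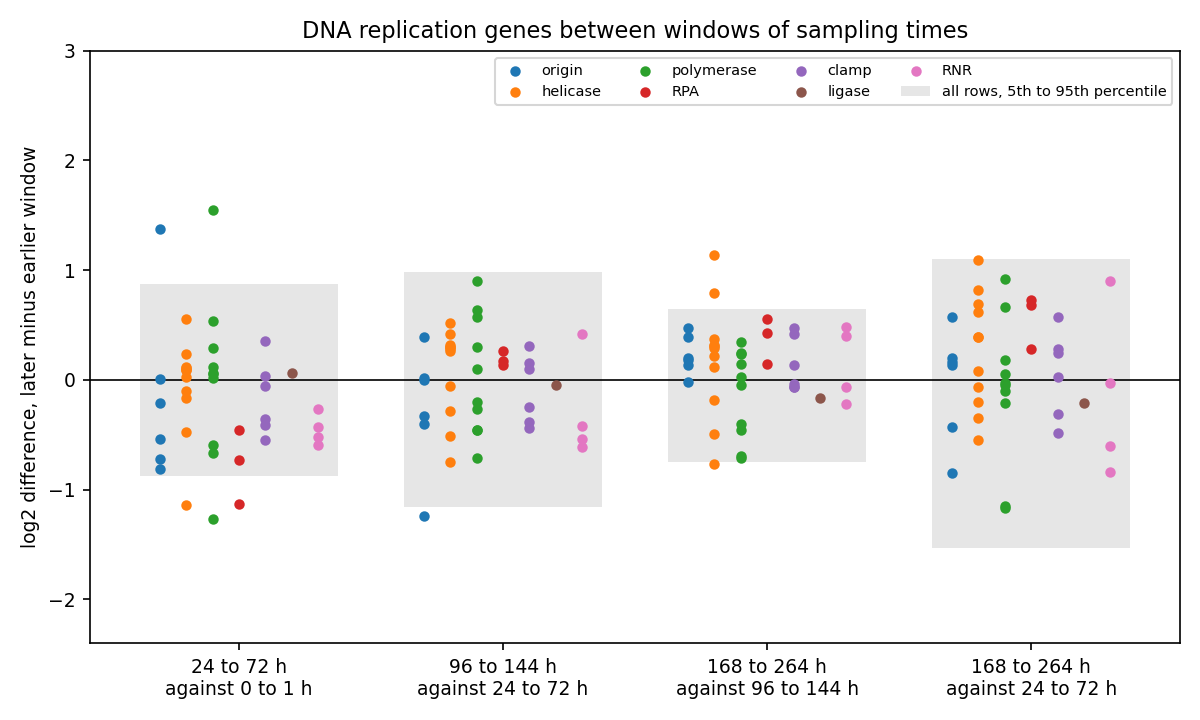
Log2 difference between windows of sampling times, later minus earlier (y axis), for the 41 DNA replication genes by role (points) in 4 comparisons (x axis). Grey bars run from the 5th to the 95th percentile of all rows. The medians of the 41 genes are -0.10, 0.02, 0.15 and 0.08 from left to right.

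In the test of the course over hours, a spline with 3 degrees of freedom, 0 of 41 genes passed (limma), against 0.0331% of all rows, and 1 had an unadjusted p under 0.05 (2.44%, against 16.1%). POL12 came nearest (limma adjusted p = 0.175), followed by RNR4 (0.334) and POL3 (0.343). The result depended on the 0 h array. Without it ORC1 (limma adjusted p = 0.00675), POL12 (0.00769) and RNR4 (0.0197) passed, together 7.32% of the replication genes, as did 18.4% of all rows. All 3 had higher levels at 1 and 24 h than at 240 and 264 h. The 1 and 24 h arrays had the widest spread of intensities, with the 95th percentile 34.4 and 29.4 times the 5th. The 240 and 264 h arrays had the narrowest, at 4.61 and 7.06 times. The part of this spread in the levels of ORC1, POL12 and RNR4 was not tested.

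Pairs of replication genes had correlations spread much as those of all rows. Over the 12 arrays, the 820 pairs of replication genes had a median Pearson r of 0.03, with 90% between -0.62 and 0.64. All pairs of rows had a median of 0.00 and 90% between -0.63 and 0.66. An r over 0.7 was found in 3.41% of the pairs and in 3.64% of all pairs of rows. The highest was 0.85, between MCM3 and POL2, and the lowest -0.92, between ORC3 and MCM3. RNR1 and RNR4 had an r of 0.74. These values are descriptions, since all pairs share the arrays, their scaling and the low signal of some probes.

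**Figure D5:**
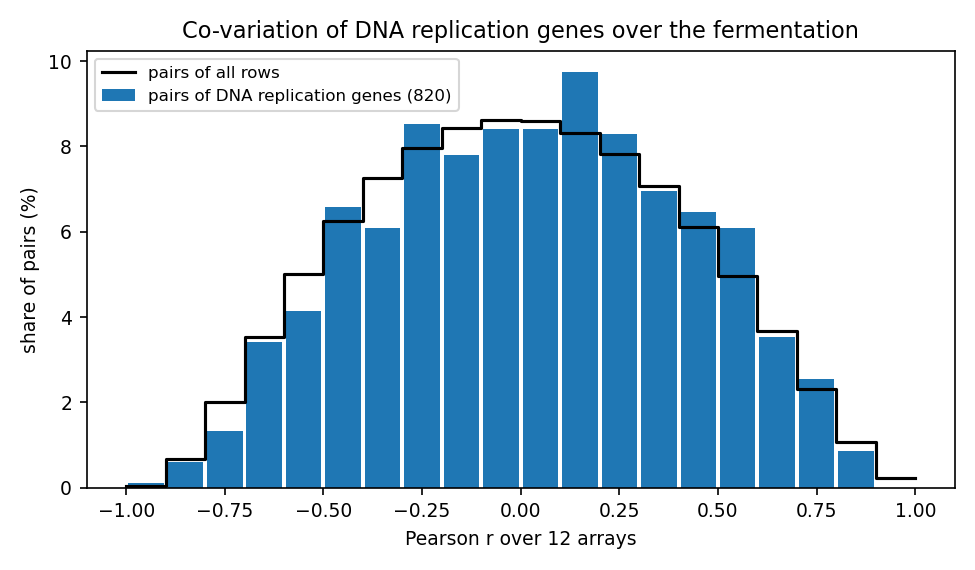
Share of gene pairs in percent (y axis) by Pearson r over the 12 arrays (x axis), for the 820 pairs of DNA replication genes (bars) and for all pairs of rows (line). The bars follow the line, with medians of 0.03 and 0.00.

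Other genes of replication and of the entry into S phase were read from 6 lists. Over all 6051 rows, 3126 were higher and 2925 lower at 1 h than at 0 h (2983 and 3068 after quantile normalization). The 9 initiation factors outside the set included CDC7 and DBF4, the kinase that fires origins. Of them 8 were lower at 1 h, with a median of -0.44 (also 8 and -0.44 after quantile normalization). TAH11, which loads MCM together with Cdc6, had the largest difference, -2.02. Of 9 genes of deoxynucleotide supply, 6 were higher at 1 h, with a median of 0.67 (5 higher and 0.01 after quantile normalization). CDC21, the thymidylate synthase, was higher by 1.09, and DIF1, which regulates where the small subunits of ribonucleotide reductase reside, differed by -1.57. Of 16 genes of Okazaki fragments, forks and topoisomerases, 7 were higher and 9 lower (the same counts after quantile normalization). RNH203, a subunit of RNase H2, had the largest difference, -3.20, with levels of 4.83 at 0 h and 1.63 at 1 h. The genes of the other subunits of that enzyme went the other way, with RNH202 higher by 1.77 and RNH201 by 0.53. What the bright RNH203 probe detects was not tested. Of 11 G1 to S regulators and cyclins, 3 were higher and 8 lower, with a median of -0.64 (5 higher and -0.49 after quantile normalization), and CLN1 was higher by 1.26. Of 10 genes of the DNA damage checkpoint and response, 4 were higher and 6 lower (5 and 5 after quantile normalization). MAG1, a DNA glycosylase, had the largest difference, -2.24. DIN7, a mitochondrial nuclease, differed by 1.97, and RFX1, the repressor of the RNR genes also called Crt1, by 1.70, but both were under the 5th percentile at 0 h.

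Core histone genes, whose transcription in S. cerevisiae is also tied to S phase, were more than 2-fold higher at 1 h in 8 of 9 genes, against 22.7% of all rows, with a median of 2.49. The exception, HTZ1, encodes a variant histone and differed by -0.20. After quantile normalization 3 of 9 were, against 17.5% of all rows, with a median of 0.76. In median-centred values their median deviation was 2.01 at 1 h, 1.38 at 24 h and -1.16 at 264 h. On these arrays the 95th percentile of intensities was 34.4, 29.4 and 7.06 times the 5th. The part of that spread in the histone levels was not tested, and the window differences below are median-centred too. In limma 0 genes of these 6 lists passed in any comparison of windows. At 168 to 264 h against 24 to 72 h the median difference was 0.27 for initiation factors and 0.22 for Okazaki fragment and fork genes. It was 0.29 for deoxynucleotide supply, 0.10 for G1 to S regulators, 0.28 for DNA damage genes and -0.98 for histones. The median over all rows was 0.04. Leaving out single arrays of these windows moved each of the 6 by over 1.5 times. The histone median was -1.42 (without 168 h) to -0.38 (without 240 h), with -0.41 without 24 h. It was -0.13 (24 h) to 0.54 (264 h) for deoxynucleotide supply and -0.03 (240 h) to 0.31 (168 h) for G1 to S regulators, so that both changed sign. It was 0.12 (24 h) to 0.38 (72 h) for initiation factors and 0.02 (264 h) to 0.36 (168 h) for Okazaki fragment and fork genes. For DNA damage genes it was 0.15 (72 h) to 0.49 (168 h).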

How the data were processed

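Total RNA of 12 samples was measured on arrays, 1 per time. The deposited values are linear probe intensities, and the scanner, background correction and scaling behind them are not given in the sources used here. Probes were named from the platform annotation, and the probes of a gene were averaged (32 symbols had several). Intensities of 0 (3, on 1 array) were set to missing, and genes with values on at least 9 arrays were kept. Log2 intensities were centred on each array's median. Windows were compared over all rows with limma 3.58.1 (R 4.3.3; lmFit and eBayes, 8 residual and 7.96 prior degrees of freedom) and Benjamini-Hochberg adjustment at 0.05. The course over hours was a natural spline with 3 degrees of freedom. For 1 h against 0 h, 2-fold differences were counted. The code was tested on simulated data. Precision is limited by how many arrays there are.

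The members and lists were chosen with earlier results of these data known. Values in full were given for RNR1 to RNR4, POL30, CDC9, CDC6, POL1, RFA1, MCM2 and ORC1, and for the 2 largest differences each way per comparison and any gene past the threshold. Genes of other lists were named if past the threshold, or from among the 2 largest each way of their list. Not all of those 2 largest were named, and CDC7, DBF4 and RNH201 were named besides. Alternatives changed scaling, background, filters, a floor, the variance model, the windows and the spline, and left out each array in turn.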

Additional observations from a re-analysis of the deposited data

Results flagged for a closer look

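Among the 4 arrays of 168 to 264 h, 3 of the 41 replication genes had an array set apart by Dixon's test at its 95% critical value. Chance sets apart about 1 in 20 groups of replicate values. These 4 arrays are different times and not replicates, and the share of all rows set apart was not computed. Whether 3 of 41 differs from what other genes show is therefore unknown. ORC6 was at 0.30 at 240 h, against -0.32 to -0.22 on the other 3 arrays. DPB3, a small subunit of polymerase epsilon, was at 0.55 at 168 h, against -0.20 to -0.07. RNR2 was at -0.42 at 240 h, against 1.07 to 1.23. The 240 h array had the narrowest spread of intensities and the lowest correlation with the other arrays, and the part of this in the ORC6 and RNR2 values was not tested.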

How the results depend on the processing

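With 1 array a time and perhaps 1 fermentation, array noise and real change cannot be told apart, and dim probes have an unknown distance from background. Without centring, the median differences of the replication genes were 0.97, -1.11, -0.83 and -2.02 in the 4 window comparisons in the order of the report and 1.44 at 1 h against 0 h, beside 0.99, -1.13, -0.94, -2.06 and 1.35 over all rows. Then 10 of the 41 genes passed at 168 to 264 h against 24 to 72 h, as did 2125 of all 6051 rows. In the course over hours 37 passed, and 26 were over 2-fold higher at 1 h and 1 lower. Shares of all rows are not given for these last counts or for the 2-fold counts under the settings below. Those counts are therefore not read as results about the replication genes. PRI1 (-0.49) and POL1 (-0.23) at 96 to 144 h, MCM5 (-0.18) at 168 to 264 h against 96 to 144 h, and POL2 (-1.19) and MCM5 (-1.01) against 24 to 72 h turned sign. The 1 h median was -0.0096 after quantile normalization and -0.0034 with equal median absolute deviations. With normexp the medians were -0.26 at 24 to 72 h, and 0.31 and 0.21 at 168 to 264 h against 96 to 144 h and 24 to 72 h, with 12 genes over 2-fold higher at 1 h. Without the dimmest 25% of genes (27 replication genes left) the last 2 medians were 0.030 and -0.061, and 3 genes were over 2-fold higher and 3 lower. With windows shifted by 1 time the 4 medians were -0.33, 0.22, 0.018 and 0.25, SLD5 at 0.24 and PRI1 at -0.083 turned sign at the middle window, and SLD5 did with a floor (0.17). Leaving out single arrays gave medians of -0.33 to -0.064, -0.068 to 0.23, 0.068 to 0.21 and -0.043 to 0.20, and 0 to 3 genes in the course over hours. Leaving out arrays for the gene lists was chosen after seeing the data. The causes were not tested.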
